A study of Mus musculus with 23 samples.

Results

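The LIM homeobox and Nkx patterning factors followed here are 10 transcription factor genes, Lhx1, Lhx3, Lhx5, Lmx1a, Lmx1b, Nkx2-2, Nkx2-3, Nkx2-5, Nkx2-9 and Nkx6-1. They were taken by gene symbol from the array annotation, with every probe set that carries one of these symbols. This gave 15 of the 45037 probe sets tested and 10 of the 20694 genes with a symbol of their own. The 5 LIM homeobox genes have 8 probe sets and the 5 Nkx genes have 7. Probe sets are given by their array name, and 6 of the 10 genes have only 1.

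RNA was taken from the striatum, the forebrain region made mostly of medium spiny neurons, of wild type (WT) mice and of mice lacking Ezh1 and Ezh2 (dKO), and hybridised to Affymetrix arrays. The dKO genotype is labelled Ezh1; Ezh2 Camk Cre, that is, with a Cre recombinase driven by a Camk promoter, which is active in forebrain excitatory neurons and medium spiny neurons, so that other cells of the tissue may keep Ezh2. At 6 weeks there were 3 WT and 3 dKO arrays, at 3 months 4 WT and 3 dKO arrays, and at 6 months 4 WT and 6 dKO arrays, 23 in all. Each group holds biological replicates per the design text, and WT mice were littermates of the same age and sex as the mutants.

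LIM homeobox proteins carry a pair of zinc-binding LIM domains beside a DNA-binding homeodomain, and they act in complexes held together by the cofactor Ldb1. Nkx proteins are homeodomain factors of the NK family. In the embryo both families help to set which neuron or organ type a progenitor becomes, in the spinal cord, midbrain, pituitary, heart and gut, and most are off in mature striatal neurons. Ezh1 and Ezh2 are enzymes that can each serve as the catalytic part of the Polycomb repressive complex PRC2, which methylates a lysine of histone H3 and is known for holding developmental genes of this kind silent, often at promoters rich in CG dinucleotides.

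The values are log2 RMA intensities that were deposited after each probe set was centred, by a rule that the sources used here do not give. Differences between arrays can be read, but the sign of a value has no meaning of its own, and the level of one gene cannot be set against another or called absent. The 4 probe sets of Ezh1 were lower in dKO at all ages and were called in all tests but 1, 1429629_at at 3 months (log2 fold change -1.10 ± 0.24 SE, adjusted p = 0.0610). Their log2 fold changes ran from -2.05 to -1.23 at 6 weeks, -2.0 to -0.88 at 3 months and -2.10 to -0.83 at 6 months, and 1449023_a_at had the largest at each age. The library labelled dKO replicate 3 at 6 weeks read 1.47 for that probe set, nearer to the WT arrays (2.07 to 2.28) than to the other dKO arrays (-0.37 and -0.62). In all 4 probe sets it was the highest dKO array and lay below all WT arrays of that age, so directions at 6 weeks rest on a doubtful label. The only Ezh2 probe set was not called at any age (log2 fold change -0.43 ± 0.15 at 6 months, adjusted p = 0.0721). Which part of either gene is deleted is not stated, and probe sets outside it would not report the loss. At 6 months WT replicate 1 and dKO replicate 2 stood apart from the other arrays in choroid plexus markers, with medians of 3.68 and 3.77 against -0.37 to 0.27 in the other 8 arrays.

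At 6 months 7 of the 10 genes were higher in dKO striatum in at least 1 probe set, and none was lower. The folds given here are those of the gene's probe set with the largest change. Lhx3 and Lmx1b were each called in only 1 of 2 probe sets, and Nkx2-3 in 2 of 3. Nkx6-1, which specifies ventral progenitors and motor neurons of the spinal cord and the insulin-producing cells of the pancreas, rose 6.91-fold. Lhx5 and Lhx1, paired regulators of inhibitory interneurons and Purkinje cells, rose 3.63-fold and 2.63-fold. Nkx2-5, a heart factor, rose 2.56-fold and Lmx1b, a factor of serotonin and dopamine neurons and of the dorsal limb, rose 2.27-fold. Lhx3, needed for the pituitary and for motor neurons, rose 1.89-fold and Nkx2-3, a factor of gut and spleen, rose 1.88-fold. Lmx1a, Nkx2-2 and Nkx2-9 did not pass the test.

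By probe set, 9 of 15 were called higher at 6 months (limma, Benjamini-Hochberg adjusted p under 0.05 over all 45037 probe sets) and 0 were called lower. Among all probe sets 6.73% were called higher and 7.14% lower in the same comparison. With 1 probe set per gene, that with the largest SD, the background was 8.71% higher. The median log2 fold change of the 10 genes was then 1.05 against 0.0034 over all genes, and over all 15 probe sets it was 0.76. The members were chosen with earlier results of these data known, so their excess over the background is a description and not a test. In 9 of the 15 probe sets every dKO array lay above every WT array, against 4.46% of all probe sets. These were the same 9 that were called, so the ordering restates the call and adds no separate support. Without the pair of arrays high in choroid plexus markers 8 of the 15 were called higher, and the log2 fold changes of those 8 ran from 0.75 to 2.74. In tissue RNA, fewer cells of a type and less RNA per cell cannot be told apart, and the same holds for more of either.

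**Figure D1:**
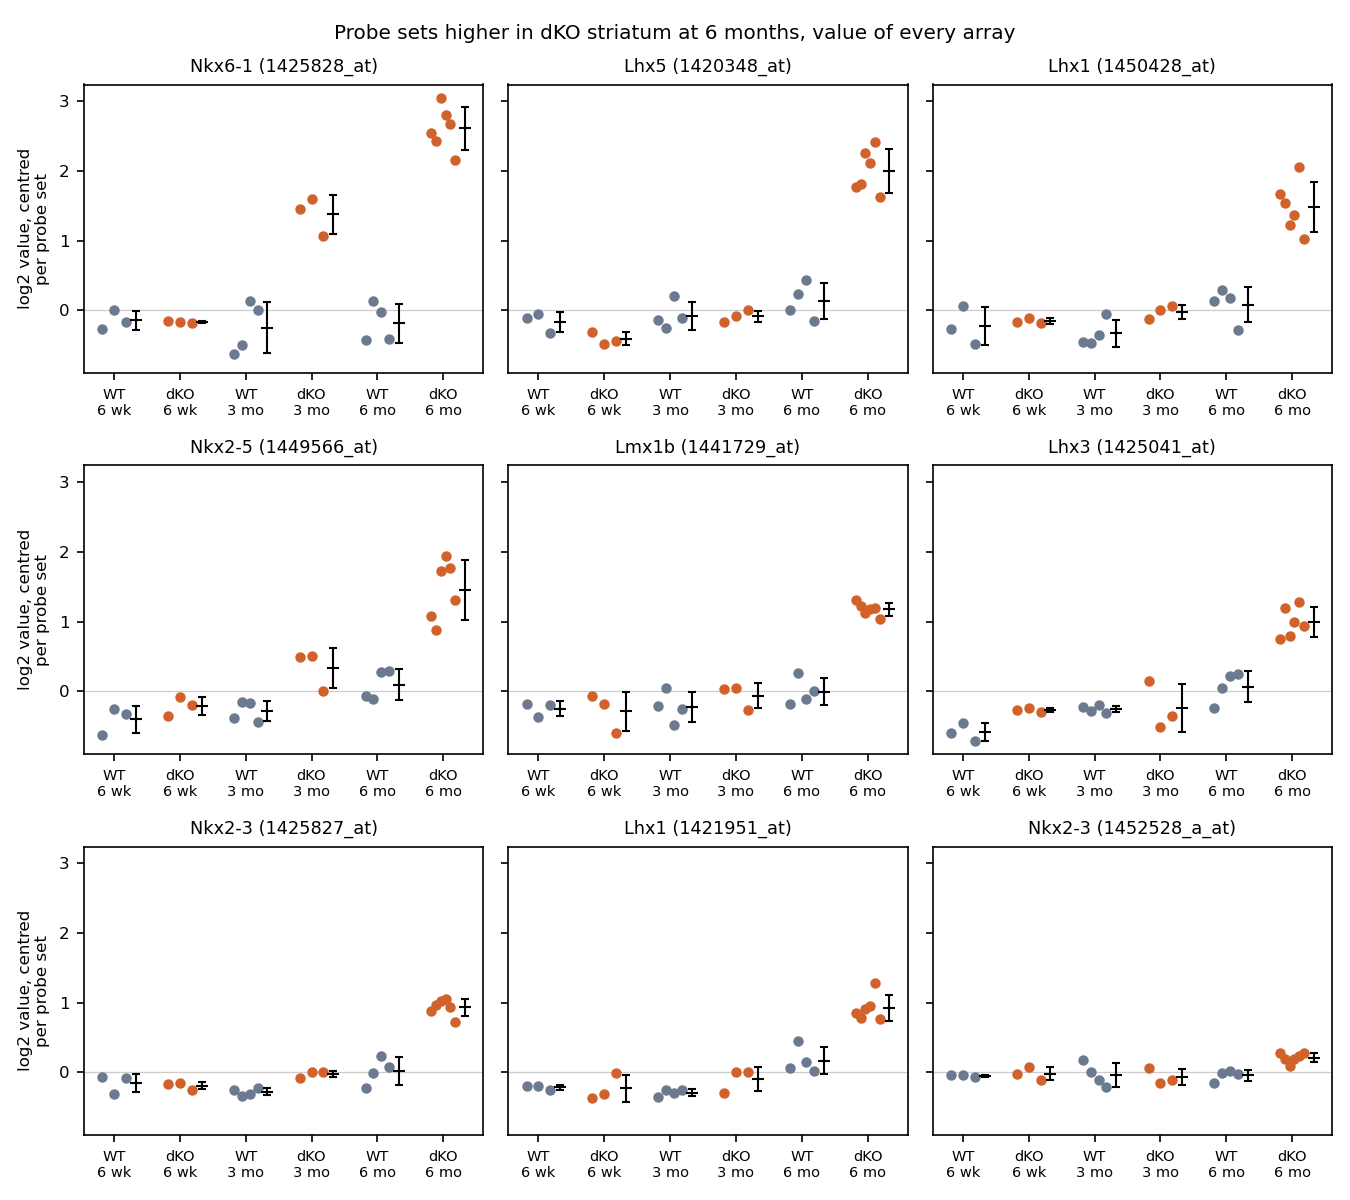
Each panel plots 1 probe set called higher in dKO striatum at 6 months, with the centred log2 value on the vertical axis and the 6 groups along the horizontal axis; points are arrays (grey WT, orange dKO) and the bar beside each group is its mean with SD. The 6 dKO arrays at 6 months lie above all 4 WT arrays of that age in every panel, and Nkx6-1 alone has its 3 dKO arrays at 3 months above 1.

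The promoters of 4 genes that rose (Nkx6-1, Lhx1, Lmx1b and Nkx2-5) and 2 that did not pass the test (Lmx1a and Nkx2-2) are shown because Polycomb targets are known for promoters dense in CG, written here in capitals. Each runs 5′ to 3′ from 250 bases before to 50 bases after the gene's start on the coding strand, from RefSeq on build GRCm38.p6. The table held a promoter for 9 of the 10 genes, all but Lhx5, and 10 windows in all.
Nkx6-1, chr5:101664662-101664961, minus strand: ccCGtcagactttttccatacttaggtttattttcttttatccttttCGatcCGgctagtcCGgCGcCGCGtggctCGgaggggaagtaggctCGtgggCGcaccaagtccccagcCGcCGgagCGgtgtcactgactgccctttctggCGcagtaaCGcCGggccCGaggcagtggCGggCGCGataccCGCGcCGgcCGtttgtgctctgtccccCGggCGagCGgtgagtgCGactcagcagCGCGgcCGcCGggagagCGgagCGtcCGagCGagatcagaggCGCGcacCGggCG
Lhx1, chr11:84525485-84525784, minus strand: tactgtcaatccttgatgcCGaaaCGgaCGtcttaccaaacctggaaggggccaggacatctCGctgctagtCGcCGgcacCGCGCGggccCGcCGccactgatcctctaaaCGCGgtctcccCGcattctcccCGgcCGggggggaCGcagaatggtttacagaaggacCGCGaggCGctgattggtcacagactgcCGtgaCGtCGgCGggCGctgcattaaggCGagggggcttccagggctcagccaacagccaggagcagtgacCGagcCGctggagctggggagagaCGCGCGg
Lmx1b, chr2:33641049-33641348, minus strand: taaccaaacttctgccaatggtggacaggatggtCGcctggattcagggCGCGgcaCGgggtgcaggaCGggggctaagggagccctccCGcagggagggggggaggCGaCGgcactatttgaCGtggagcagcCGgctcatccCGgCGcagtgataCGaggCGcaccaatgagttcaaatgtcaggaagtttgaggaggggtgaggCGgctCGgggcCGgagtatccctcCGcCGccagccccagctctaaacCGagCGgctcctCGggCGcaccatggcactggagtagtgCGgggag
Nkx2-5, chr17:26841516-26841815, minus strand: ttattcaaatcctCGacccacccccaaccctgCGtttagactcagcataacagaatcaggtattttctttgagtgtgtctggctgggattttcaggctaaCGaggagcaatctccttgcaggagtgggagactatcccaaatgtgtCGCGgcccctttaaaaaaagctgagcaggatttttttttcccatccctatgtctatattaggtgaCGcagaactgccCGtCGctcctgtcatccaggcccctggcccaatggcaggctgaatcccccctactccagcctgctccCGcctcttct
Lmx1a, chr1:167689308-167689607, plus strand: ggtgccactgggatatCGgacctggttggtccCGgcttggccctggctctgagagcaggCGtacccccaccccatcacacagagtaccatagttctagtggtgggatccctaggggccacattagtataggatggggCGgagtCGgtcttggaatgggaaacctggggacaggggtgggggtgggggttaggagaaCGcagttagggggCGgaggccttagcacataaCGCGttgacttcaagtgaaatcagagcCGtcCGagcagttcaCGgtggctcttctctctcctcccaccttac
Nkx2-2, chr2:147186353-147186652, minus strand: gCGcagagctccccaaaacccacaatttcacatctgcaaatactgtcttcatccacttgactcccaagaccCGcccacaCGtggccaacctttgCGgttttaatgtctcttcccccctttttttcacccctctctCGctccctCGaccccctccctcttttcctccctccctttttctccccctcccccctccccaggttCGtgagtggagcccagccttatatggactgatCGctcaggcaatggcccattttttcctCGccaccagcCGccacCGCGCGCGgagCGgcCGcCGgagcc

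Nkx6-1 has 40 CG dinucleotides in this window, more than 96.1% of the 32851 promoters in the table, which have a median of 7 and quartiles of 3 and 20. Lhx1 has 31, Lmx1b 24, and Nkx2-5 only 9. Both windows of Lhx3 (28 and 13 CG) and that of Nkx2-3 (15) lie in between. The genes that did not pass the test have 17 (Nkx2-2), 15 (Nkx2-9) and 12 (Lmx1a). All 10 windows have at least the median number, and the windows of genes that rose (9 to 40) span those of genes that did not (12 to 17). No histone mark was measured in these samples. Searched on both strands, the homeodomain core TAATTA was in 0 of the 10 windows and in 5.29% of all promoters. The NK2-type motif CAAGTG was in 2 of the 10, Lmx1a and Nkx2-2, and in 13.6% of all promoters. The TATA-box letters TATAAA were in 1, an Lhx3 window, and in 13.6% of all promoters. None of these motifs overlaps another in its letters, and a match is only a match of letters.

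**Figure D2:**
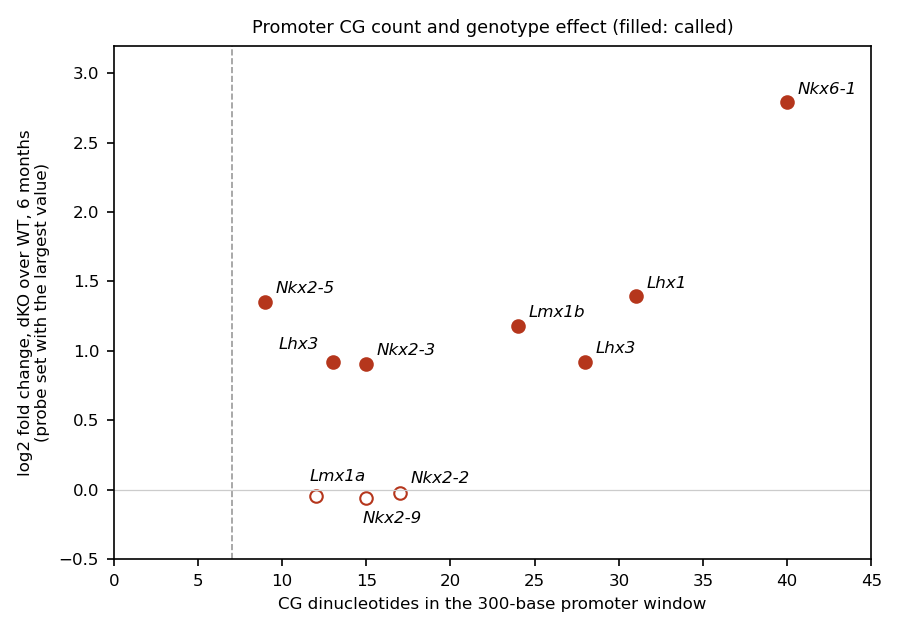
The horizontal axis counts CG dinucleotides in the 300-base promoter window and the vertical axis gives the log2 fold change of dKO over WT at 6 months for the gene's probe set with the largest value; filled points passed the test, Lhx3 has a point for each of its 2 windows, and the dashed line is the median of all promoters, 7. Nkx6-1 is highest on both axes, and Nkx2-5 rose with the fewest CG of the 10 windows.

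Among the LIM homeobox genes Lhx5 changed most. In the 4 WT arrays at 6 months probe set 1420348_at read 0.01, 0.23, 0.44 and -0.15. In the 6 dKO arrays it ran from 1.62 through a median of 1.96 to 2.41. The lowest dKO array lay more than 1 log2 unit above the highest WT array. The log2 fold change was 1.86 ± 0.14 (SE, adjusted p = 3.1e-09, limma). Quantile normalization of the deposited values gave 1.26, still called.

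Lhx1 rose in both of its probe sets. For 1450428_at the WT arrays at 6 months read 0.13, 0.29, 0.18 and -0.27, and the dKO arrays ran from 1.02 through a median of 1.46 to 2.05. For 1421951_at the WT arrays read 0.06, 0.45, 0.15 and 0.02, and the dKO arrays ran from 0.76 through 0.88 to 1.28. The groups did not overlap in either probe set. The log2 fold changes were 1.39 ± 0.15 (SE, adjusted p = 2.21e-06) and 0.76 ± 0.10 (adjusted p = 3.3e-05). Lhx1 lies on chromosome 11, as does Ezh1.

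Lmx1b and Lhx3 each rose in 1 of their 2 probe sets. For Lmx1b 1441729_at the WT arrays read -0.18, 0.26, -0.11 and 0.01 at 6 months, and the dKO arrays ran from 1.03 through a median of 1.18 to 1.31. This is the tightest of the called LIM probe sets, with an SD of 0.092 among the 6 dKO arrays. Its log2 fold change was 1.18 ± 0.11 (SE, adjusted p = 2.18e-07). The other Lmx1b probe set, 1421769_at, spanned -0.19 to 0.37 in dKO against -0.01 to 0.39 in WT, and its log2 fold change was -0.10 (95% interval -0.31 to 0.12).

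For Lhx3 1425041_at the WT arrays read -0.24, 0.05, 0.22 and 0.25 at 6 months, and the dKO arrays ran from 0.76 through a median of 0.96 to 1.28. All dKO arrays were again above all WT arrays, with a log2 fold change of 0.92 ± 0.12 (SE, adjusted p = 2.42e-05). The second Lhx3 probe set, 1421753_a_at, overlapped between the groups, with dKO arrays at -0.36 to 0.28 and WT arrays at -0.20 to 0.25. Its log2 fold change was -0.03 (95% interval -0.26 to 0.20).

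Among the Nkx genes Nkx6-1 changed most, and most of all 15 probe sets. At 6 months the WT arrays read -0.43, 0.14, -0.03 and -0.41, and the dKO arrays ran from 2.15 through a median of 2.60 to 3.05. The gap between the groups was larger than the whole range within either. The log2 fold change was 2.79 ± 0.16 (SE, adjusted p = 7.01e-11, limma). Quantile normalization lowered it to 2.0, still called.

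Nkx2-5 read -0.07, -0.11, 0.28 and 0.30 in the WT arrays at 6 months, and ran from 0.88 through a median of 1.52 to 1.94 in the dKO arrays. The dKO arrays were the most spread of any called probe set, with an SD of 0.42, and still none reached down to WT. The log2 fold change was 1.35 ± 0.17 (SE, adjusted p = 1.25e-05).

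Nkx2-3 has 3 probe sets, which differed in size. For 1425827_at the WT arrays read -0.22, -0.01, 0.24 and 0.08 at 6 months, and the dKO arrays ran from 0.72 through a median of 0.95 to 1.05. For 1452528_a_at the WT arrays read -0.16, -0.01, 0.03 and -0.02, and the dKO arrays from 0.10 through 0.22 to 0.28. Both showed no overlap, at log2 fold changes of 0.91 ± 0.08 (SE, adjusted p = 1.07e-07) and 0.25 ± 0.07 (adjusted p = 0.0234). The second call was lost without WT replicate 1 (adjusted p = 0.0798). The third probe set, 1427741_x_at, is of the kind whose probes can match other transcripts, and read 0.13 (95% interval -0.10 to 0.35) with overlapping groups.

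**Figure D3:**
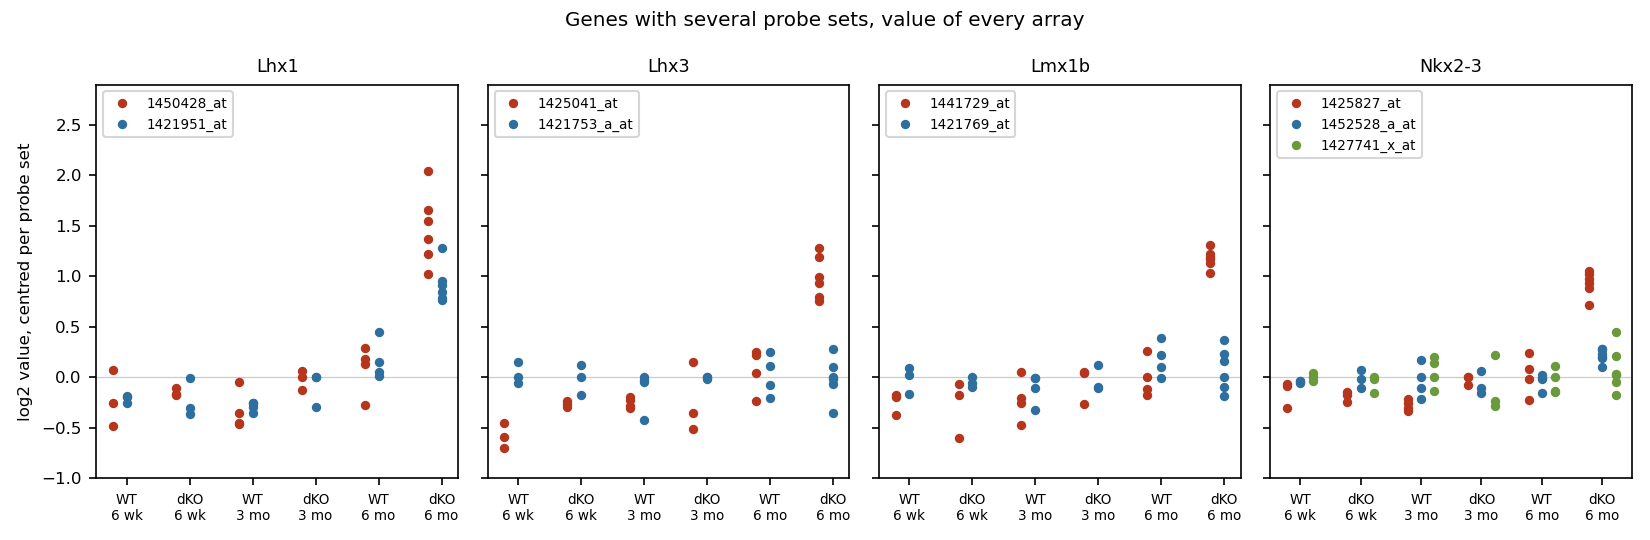
Each panel is 1 gene with several probe sets, with the centred log2 value of every array on the vertical axis, the 6 groups on the horizontal axis and 1 colour per probe set. Both Lhx1 probe sets rise in dKO at 6 months, while Lhx3 and Lmx1b rise in 1 of 2, and Nkx2-3 rises strongly in 1 of 3.

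The 3 genes that did not pass the test at 6 months each have 1 probe set, and none can be called unchanged. Lmx1a, which specifies roof plate and midbrain dopamine progenitors beside Lmx1b, read 0.00, 0.14, 0.30 and 0.17 in WT and ran from -0.15 through 0.17 to 0.35 in dKO. Its log2 fold change was -0.05 (95% interval -0.25 to 0.16). Nkx2-9, active near the floor plate beside Nkx2-2, read 0.0037, 0.16, 0.28 and 0.59 in WT and ran from 0.0055 through 0.13 to 0.47 in dKO. Its log2 fold change was -0.06 (95% interval -0.28 to 0.15). The groups overlapped in both genes, and either interval leaves out a change as large as that of Nkx2-3 1425827_at.

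Nkx2-2 specifies the most ventral spinal progenitors and acts in oligodendrocyte differentiation. At 6 months it read 0.0033, 0.39, 0.40 and 0.34 in WT and ran from -0.15 through 0.29 to 0.71 in dKO, at a log2 fold change of -0.02 (95% interval -0.30 to 0.25). At 3 months it read -0.50, -0.43, -0.57 and -0.51 in WT and -0.39, -0.26 and -0.16 in dKO, so all dKO arrays were above all WT arrays. The difference of 0.23 ± 0.16 (SE) was not called (adjusted p = 0.985). At 6 months 7.14% of all probe sets were lower in dKO. Of the oligodendrocyte lineage markers, 4 of 13 were lower and 0 higher at that age (median log2 fold change -0.42). Ermn (-0.98), Mag (-0.50) and Gpr17 (-0.45) were among them. Their part in the Nkx2-2 result was not tested.

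At 3 months Nkx6-1 was the only one of the 10 genes that was called, and it was higher. The WT arrays read -0.62, -0.49, 0.13 and 0.00 and the dKO arrays 1.46, 1.60 and 1.07. The groups did not overlap, and the log2 fold change was 1.62 ± 0.19 (SE, adjusted p = 1.19e-04, limma), or 3.07-fold. This is 1 of 15 probe sets, where 0.171% of all probe sets were called higher and 0.0155% lower at this age. At an unadjusted p under 0.05 there were 3 of 15, all higher. The share of all probe sets at that looser threshold was not counted, so these 3 are not read as an excess.

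In 4 of the 15 probe sets all dKO arrays at 3 months lay above all WT arrays, against 4.71% of all probe sets. Besides Nkx6-1 and Nkx2-2 these were Nkx2-5 and Nkx2-3 1425827_at, both of which also rose at 6 months. Nkx2-5 read -0.38, -0.16, -0.16 and -0.44 in WT and 0.49, 0.51 and 0.00 in dKO. Its log2 fold change of 0.62 ± 0.20 (SE) was not called (adjusted p = 0.403), but was under quantile normalization (0.73, adjusted p = 0.0369) and with array weights (0.68, adjusted p = 0.0426). Nkx2-3 1425827_at read -0.25, -0.33, -0.30 and -0.22 in WT and -0.08, 0.0029 and 0.00 in dKO, a log2 fold change of 0.25 ± 0.10 (adjusted p = 0.635). Lhx5, second at 6 months, read -0.14, -0.26, 0.21 and -0.11 in WT and -0.16, -0.09 and 0.00 in dKO at 3 months, a log2 fold change of -0.01 ± 0.16 with overlapping groups.

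At 6 weeks 0 of the 15 probe sets were called by limma, where 0.102% of all probe sets were called higher and 0.0866% lower. At an unadjusted p under 0.05 there was 1, higher, and the share of all probe sets at that threshold was not counted. The log2 fold changes ran from -0.25 to 0.32. Nkx6-1 read -0.27, 0.00 and -0.16 in WT and -0.15, -0.16 and -0.17 in dKO, and its log2 fold change of -0.02 had a 95% interval from -0.45 to 0.41. The probe set at 0.32 ± 0.15 (SE, adjusted p = 0.597) was Lhx3 1425041_at, which read -0.59, -0.45 and -0.70 in WT and -0.27, -0.24 and -0.29 in dKO. It was the only one of the 15 with all dKO arrays above all WT arrays, against 7% of all probe sets, and Lmx1a was the only one with all below, against 9.95%. Without the library labelled dKO replicate 3, again 0 of 15 were called.

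**Figure D4:**
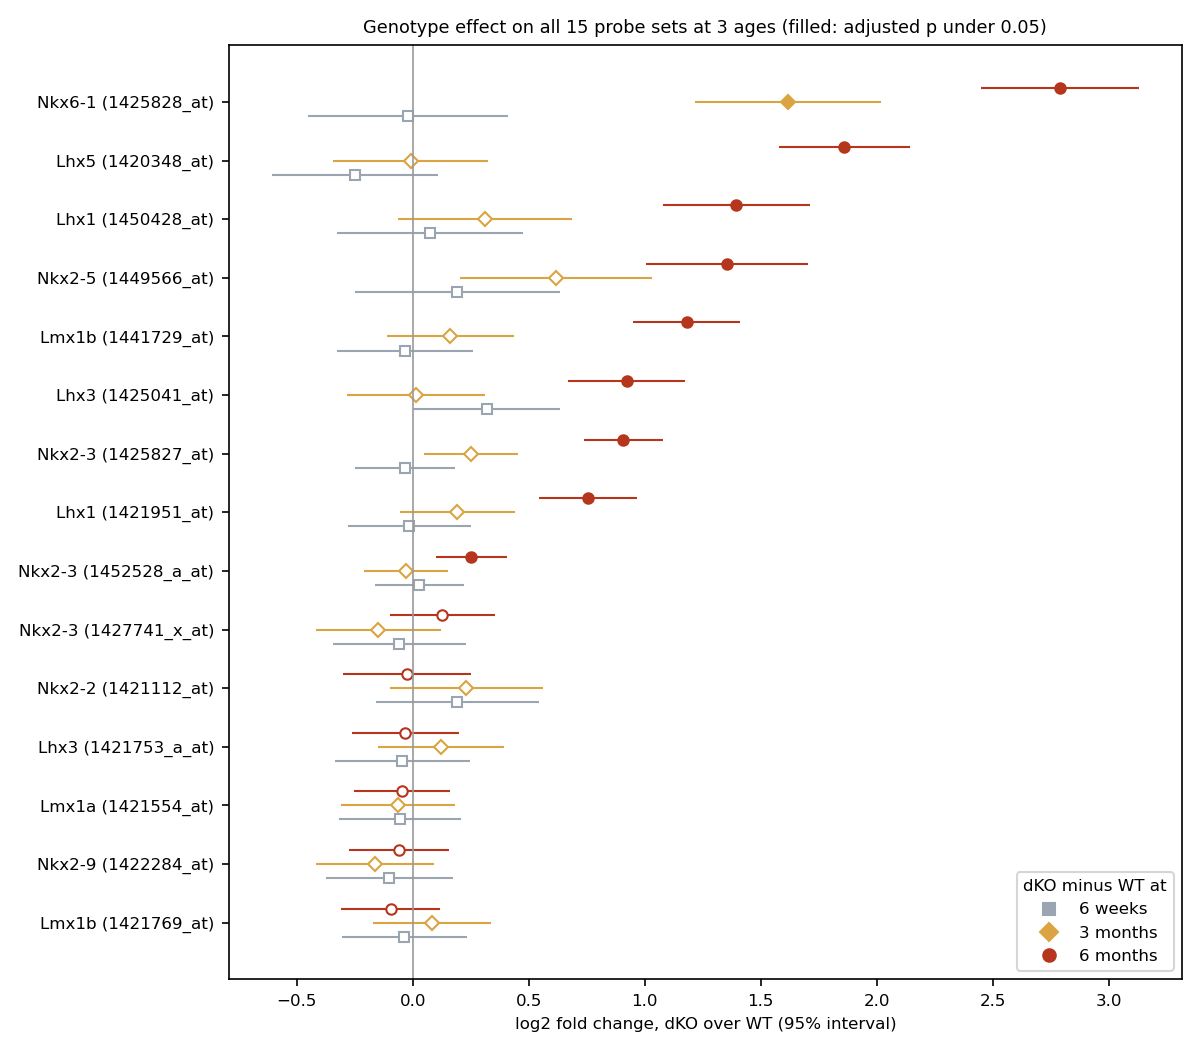
The log2 fold change of dKO over WT with its 95% interval (horizontal axis) is drawn for all 15 probe sets (rows) at 6 weeks (squares), 3 months (diamonds) and 6 months (circles), and filled markers passed the test. Nkx6-1 is filled at 3 and 6 months, 8 other probe sets at 6 months only, and no marker is filled at 6 weeks.

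Whether the genotype effect differed between ages was tested as the difference of both effects in the same fit. From 3 to 6 months the effect grew in 6 of 15 probe sets, where 0.417% of all probe sets were called in this direction. The growth in log2 units was 1.87 ± 0.21 (SE, adjusted p = 2.09e-05) for Lhx5, 1.17 ± 0.25 (adjusted p = 0.0265) for Nkx6-1 and 1.08 ± 0.24 (adjusted p = 0.0279) for Lhx1 1450428_at. Lmx1b 1441729_at (1.02, adjusted p = 0.00398), Lhx3 1425041_at (0.91, adjusted p = 0.0191) and Nkx2-3 1425827_at (0.66, adjusted p = 0.0112) made up the rest. The count was 4 without WT replicate 3 or 4 or dKO replicate 2 or 3 at 3 months, or WT replicate 4 at 6 months, and 2 with quantile normalization. For Nkx2-5 the growth of 0.74 ± 0.26 was not called (adjusted p = 0.209).

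From 6 weeks to 6 months the effect also grew in 6 of 15 probe sets, against 0.375% of all. These were Nkx6-1 (2.81 ± 0.26, adjusted p = 8.85e-07), Lhx5 (2.11 ± 0.22, adjusted p = 4.07e-06), Lhx1 1450428_at (1.32), Lmx1b 1441729_at (1.21), Nkx2-3 1425827_at (0.94) and Lhx1 1421951_at (0.77). For Nkx2-5 (1.16, adjusted p = 0.0528) and Lhx3 1425041_at (0.60, adjusted p = 0.184) it was not called. The count was 4 with quantile normalization and with trended robust eBayes, where neither Lhx1 probe set was called. With array weights it was 8. From 6 weeks to 3 months 0 of 15 were called by limma, where 0.00444% of all were called higher. At an unadjusted p under 0.05 there was 1, and the share of all probe sets at that threshold was not counted. That one was Nkx6-1, whose effect grew by 1.64 ± 0.28 at an adjusted p of 0.0503.

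In WT striatum 3 of the 15 probe sets were higher at 6 months than at 6 weeks, and 6.29% of all probe sets were. They were Lhx3 1425041_at (0.65 ± 0.14 in log2, adjusted p = 0.00476), Nkx2-9 (0.40 ± 0.12, adjusted p = 0.0336) and Lhx1 1421951_at (0.38 ± 0.12, adjusted p = 0.0376). Nkx6-1 differed by -0.04 (95% interval -0.44 to 0.36) over the same span. Only Lhx3 was called without WT replicate 1, 2 or 3 at 6 weeks or replicate 3 at 6 months, and with both arrays high in choroid plexus markers left out the count was 5. The labels give no array batch, so age and batch cannot be told apart here. The comparisons of genotype were made within an age.

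Among the 6 dKO arrays at 6 months the order was partly shared between genes. Replicate 6 was the lowest in 6 of the 9 called probe sets, among them Nkx6-1, Lhx5 and Lhx1 1450428_at, and replicate 5 was the highest in 4, among them Lhx5 and both Lhx1 probe sets. Lmx1b and Nkx2-3 1452528_a_at put replicate 1 and replicate 6 highest.

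Related genes were counted in lists chosen with earlier results of these data known, each gene by its probe set with the largest SD. Counted in this way, 8.71% of all genes were higher at 6 months. The share of all probe sets that were lower was 7.14%. Of the other LIM homeobox genes 4 of 7 measured were higher and 0 lower at 6 months, with a median log2 fold change of 0.39. They were Lhx9 (1.37 ± 0.27), Isl2 (0.89 ± 0.09), a motor neuron factor, Lhx2 (0.53 ± 0.10) and Lhx4 (0.39 ± 0.08), the paralog of Lhx3. Isl1, which forms the motor neuron complex with Lhx3, was not called (-0.12 ± 0.18), and neither were Lhx6 (-0.21 ± 0.13) and Lhx8 (0.28 ± 0.22), factors of striatal interneurons. Of the other Nkx genes 1 of 8 measured was higher and 0 were lower, with a median log2 fold change of 0.05. Among them Nkx6-2, the close relative of Nkx6-1, read -0.34 ± 0.13 (adjusted p = 0.0929). At 6 weeks and 3 months 0 genes of either list were called by limma. Isl1, Lhx6, Lhx8 and Nkx6-2 are named after their values were seen.

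Of the cofactors of LIM proteins 2 of 10 were higher and 1 lower at 6 months, with a median of 0.04. With 8.71% of all genes higher and 7.14% of all probe sets lower, counts this small are not read as a result about the list. Ldb2 (0.74 ± 0.20) and Ssbp2 (0.71 ± 0.22), parts of the Ldb complex, were higher and Lmo2 (-0.55 ± 0.14), a LIM-only competitor, was lower. Of partners and downstream genes in embryonic patterning 15 of 28 were higher and 2 lower, with a median of 0.45. Pou4f1 (3.86 ± 0.19), a sensory neuron factor, Lbx1 (3.64 ± 0.14), a dorsal spinal factor, Mnx1 (2.96 ± 0.17), a motor neuron factor, and Gata2 (2.47 ± 0.10), a V2b interneuron factor, were the largest. Lower were Dbx2 (-0.50 ± 0.11), which marks progenitors next to those of Nkx6-1, and Shh (-0.43 ± 0.14), the signal that turns on Nkx2-2 and Nkx6-1 in the neural tube. At 3 months, where 0.171% of all probe sets were higher, 3 were higher beside Nkx6-1, namely Pou4f1 (1.94 ± 0.23), Irx3 (1.20 ± 0.20) and Foxa1 (0.95 ± 0.17). Dbx2, Shh, Irx3 and Foxa1 are named after their values were seen.

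Markers of cells in which these factors normally act were counted at 6 months, each gene by its probe set with the largest SD. Counted in this way 8.71% of all genes were higher. Among all probe sets 6.73% were higher and 7.14% lower. Of the hindbrain and spinal cord neuron markers 7 of 11 were higher and 0 lower (median log2 fold change 0.69), led by Slc6a5 (4.11 ± 0.27), the neuronal glycine transporter, with Lbx1, Mnx1 and Glra1 (0.84 ± 0.27). Per array the median of this list was 0.50 to 1.10 in dKO and -0.27 to 0.03 in WT. Its Lbx1, Mnx1, Tlx3 and Evx1 are also among the partners and downstream genes counted above, as are En1, Foxa1 and Foxa2 of the next list. These counts are therefore not separate. Of the midbrain dopamine neuron markers, cells that use Lmx1a and Lmx1b, 3 of 11 were higher and 2 lower. The transcription factors En1 (2.36 ± 0.13), Foxa1 (2.05 ± 0.14) and En2 (0.76 ± 0.11) rose, whereas the vesicle transporter Slc18a2 (-1.14 ± 0.25) and Aldh1a1 (-0.95 ± 0.20) fell. The enzyme and transporter that define these neurons, Th (-0.30 ± 0.18) and Slc6a3 (-0.50 ± 0.39), named after their values were seen, were not called. Per array the median of the list was 0.16 to 0.44 in dKO and -0.06 to 0.40 in WT.

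The share at 6 months was again 8.71% of all genes higher, counted by 1 probe set each, and 7.14% of all probe sets lower. Of the medium spiny neuron markers, those of the main striatal cell, 0 of 15 were higher and 11 lower at 6 months. Their median log2 fold change was -0.78, and Drd2 (-1.84 ± 0.21), Adora2a (-1.65 ± 0.20), Gpr6 (-1.29 ± 0.23) and Drd1 (-1.15 ± 0.18) fell most. The list's median lay between -0.86 and -0.39 in the dKO arrays and between 0.03 and 0.25 in the WT arrays, with no overlap. Cholinergic neuron markers were lower in 3 of 6, and thalamic or pallidal ones lower in 4 and higher in 1 of 11. Cortical and hypothalamic ones were higher in 1 and lower in 1 each (of 12 and 11). The cortical list varied widely between arrays at 6 months, with medians of -2.19 to -0.03 in WT and -1.09 to 0.28 in dKO. Its median log2 fold change at that age was 0.52. Choroid plexus (13) and ependymal markers (7) had 0 called by limma. At 6 weeks the thalamic or pallidal median was -0.21 to 1.04 in dKO arrays and -0.70 to -0.46 in WT arrays, with Slc17a6 called higher (2.11 ± 0.42). The part of these cell types in the results was not tested, and since the values are centred no marker can be said to be at 0.

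The genes whose values ran most like each member over the 23 arrays are given by Pearson's r, as a description, since all points share the same arrays and groups. Each member was taken by its probe set with the largest SD. For genes with several these were Lhx1 1450428_at, Lhx3 1425041_at, Lmx1b 1441729_at and Nkx2-3 1425827_at. Their other probe sets were not compared in this way. Nkx6-1 ran most like Wt1 (0.973) and Hoxc8 (0.972), Lhx5 like Tbx20 (0.972) and Pitx1 (0.970), and Nkx2-5 like Hoxc9 (0.969) and Six2 (0.967). Lmx1b ran like Hand2 (0.965) and Hoxd10 (0.964), Nkx2-3 like Lbx1 (0.971) and Lhx1os (0.968), and Lhx3 like Lhx4 (0.941) and Gata4 (0.940). Lhx1 ran like Hoxa10 (0.963) and Lhx1os (0.963), a noncoding gene next to it on chromosome 11 with 0 annotated genes between them, which rose by 1.91 in log2 at 6 months. The genes that did not pass the test had lower values and other companions. These were Oas1a (0.924) and Il17re (0.889) for Nkx2-9, Gadd45b (0.865) and Accs (0.863) for Nkx2-2, and Tsc22d4 (0.797) and Lce3c (0.792) for Lmx1a.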

How the data were processed

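Biotin-labelled RNA from mouse striatum was read on Affymetrix arrays, per the labels' protocols. The authors made the deposited log2 values with RMA (no version in the submitters' processing notes). The array design was not given in the sources used here. Each probe set was then centred, as the values show: 39666 of 45101 (87.9%) are exactly 0 on some array. The authors' normalized values include 2 columns with a shared name, left out here, and 21 columns that match the values used (largest difference 0). No 2 arrays were alike (smallest median absolute difference 0.104).

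After 64 control probe sets were left out, 1 mean per group was fitted to all 45037 probe sets and 23 arrays with limma 3.58.1 in R 4.3.3 (default eBayes, residual df 17), with no further normalization and no covariates. Tests were two-sided, Benjamini-Hochberg adjusted over all probe sets and called under 0.05, and the fit was tested on simulated data. The number of arrays limits the precision. All member probe sets are reported; of other lists, at most 4 called genes with the largest change at 6 months, and for each member the 2 most similar genes. A few list genes that this rule names are not reported here. Members and lists were chosen with earlier results of these data known. Gene names, chromosomes and neighbours came from a RefSeq table of GRCm38.p6. Array quality (3′ minus 5′ control probe sets) was compared with exact permutation tests. Alternatives were quantile normalization, fits on the groups compared alone, trended robust eBayes, array weights, a replicate block, a stricter threshold of 0.01, 1 probe set per gene, a filter on small SD, Xist as a covariate, and leaving out each array. Same-numbered WT and dKO arrays did not deviate together (r -0.33 to 0.14), so replicate numbers were not taken as pairs.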

Additional observations from a re-analysis of the deposited data

Results flagged for a closer look

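Each probe set was examined in each group of 4 or more arrays, which gave 45 sets of values. In 3 of them an array stood apart from the rest by Dixon's criterion. Chance gives this in about 5% of sets, and the sets share arrays, so they are not independent. dKO replicate 5 at 6 months read 1.28 for Lhx1 1421951_at, above the other 5 arrays. WT replicate 2 at 3 months read -0.42 for Lhx3 1421753_a_at, below the other 3. WT replicate 1 at 6 months read 0.0033 for Nkx2-2, also below the other 3.

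The genotype effect was called different between ages in 12 tests. These were 6 of 15 probe sets from 3 to 6 months and 6 of 15 from 6 weeks to 6 months. From 6 weeks to 3 months there were 0 of 15. Among all probe sets 0.417% were called to grow from 3 to 6 months and 0.375% from 6 weeks to 6 months. The 12 share the arrays at 6 months and mostly the same probe sets, so they are not separate results. From 3 to 6 months it grew by 1.87 for Lhx5, 1.17 for Nkx6-1, 1.08 for Lhx1 1450428_at, 1.02 for Lmx1b 1441729_at, 0.91 for Lhx3 1425041_at and 0.66 for Nkx2-3 1425827_at, in log2 units. From 6 weeks to 6 months it grew by 2.81 for Nkx6-1, 2.11 for Lhx5, 1.32 for Lhx1 1450428_at, 1.21 for Lmx1b 1441729_at, 0.94 for Nkx2-3 1425827_at and 0.77 for Lhx1 1421951_at.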

How the results depend on the processing

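The calls of Lhx1 (both probe sets), Lhx3 1425041_at, Lhx5, Lmx1b 1441729_at, Nkx2-3 1425827_at, Nkx2-5 and Nkx6-1 at 6 months and of Nkx6-1 at 3 months kept direction and threshold under each alternative that tested them. Nkx6-1 at 3 months ran from 1.49 to 2.11 (log2). Only Nkx2-3 1452528_a_at lost its 6-month call, under quantile normalization (adjusted p = 0.0612), groups compared alone (0.0694), array weights (0.0672), the replicate block (0.112), the 0.01 threshold (0.0234), without WT replicate 1 (0.0798) and, added after seeing the data, without both arrays high in choroid plexus markers (0.085). No called result reversed.

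Members called higher at 3 months went from 1 to 2 with quantile normalization and with array weights. From 6 weeks to 3 months 1 effect was called to grow (Nkx6-1) with quantile normalization, array weights or the filter on small SD. From 3 to 6 months the 6 fell to 2 (quantile), 3 (trended robust eBayes), 3 (replicate block) and 2 (threshold 0.01). From 6 weeks to 6 months the 6 became 4 (quantile), 4 (trended robust eBayes), 5 (groups compared alone) and 5 (threshold 0.01). It rose to 8 (array weights), 7 (filter on small SD), 7 (Xist) and 7 (without both arrays high in choroid plexus markers). The 3 WT age calls became 7 (array weights), 0 (replicate block), 1 (threshold 0.01), 1 (Xist) and 5 (without both arrays high in choroid plexus markers). Leaving out each array in turn gave 0 members at 6 weeks, 1 at 3 months, 8 to 9 at 6 months, 0 to 1, 4 to 7 and 5 to 7 for the 3 differences between ages, and 1 to 3 for WT age.

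Counts over all probe sets moved more. At 6 weeks 46 higher and 39 lower became 9 and 6 (groups compared alone), 1899 and 2352 (array weights), 10 and 7 (replicate block), 11 and 8 (threshold 0.01), 25 and 18 (1 probe set per gene) and 85 and 72 (Xist). At 3 months 77 and 7 became 163 and 17 (quantile), 136 and 18 (groups compared alone), 252 and 82 (array weights), 41 and 3 (replicate block) and 42 and 3 (threshold 0.01), with 4 lower under trended robust eBayes and 17 lower without both arrays high in choroid plexus markers. At 6 months 3030 and 3217 became 1314 and 1413 (groups compared alone), 1806 and 2012 (replicate block), 1386 and 1543 (threshold 0.01) and 1874 and 1853 (1 probe set per gene). Leaving out 1 array gave 9 to 158 higher and 9 to 220 lower at 6 weeks, 39 to 108 and 3 to 16 at 3 months, and 1960 to 3634 and 2355 to 3875 at 6 months. Fewer arrays, a lower threshold or fewer probe sets enter by construction in some of these, and otherwise the cause was not tested. The array weights lean most on dKO replicate 3 at 6 weeks, the library of doubtful label. Its weight was 4.47, and the next largest was 1.88. With the replicate block 8 member probe sets were higher at 6 months. Signal over background cannot be read from centred values.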

Other observations

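The 3′ minus 5′ difference of the Actb and Gapdh control probe sets, a sign of RNA quality, was compared between genotypes in 6 tests. The largest difference was for Actb at 3 months, 0.157 higher in dKO (exact permutation p = 0.0571, the smallest that 4 against 3 arrays allow, two-sided; adjusted p = 0.343), the age at which Nkx6-1 was first called, and its part in that result was not tested. At 6 months, where 7 genes rose, the differences were -0.0015 for Actb (exact permutation p = 0.971) and -0.0051 for Gapdh (exact permutation p = 0.876).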
